A study of Rattus norvegicus with 4 samples.

Results

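The genes described here encode abundant protein kinases and protein phosphatases of the rat choroid plexus, the secretory tissue of the brain ventricles that makes cerebrospinal fluid. They were the kinases and phosphatases that the study had listed as highest expressed, 20 of each class, as far as the listed name was paired with an Ensembl gene ID in its gene list, together with PRKACA, the catalytic alpha subunit of protein kinase A. Values are given for 30 of these genes, out of 32883 IDs in the files, 20 kinases and 10 phosphatases. The other 10 listed phosphatases, PTPN11, MTMR2, PPM1F, DUSP14, PPM1G, PGP, MTMR6, PTP4A1, PPP6C and PPP4C, had no ID paired with their name and are not analysed here. The study had ordered its lists by the male choroid plexus level, so a high male level is a property of the selection and is given below as a description. That level is also the reference of the comparisons below, so the selection itself favours lower values in the other libraries.

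RNA was sequenced from 4 groups with 1 library each, all from Sprague Dawley rats aged 9 weeks with no genetic change and no experimental treatment, which were anaesthetised with xylazine and ketamine before the tissue was taken. The male and the female choroid plexus libraries were each a pool of the lateral and the fourth ventricle tissue of 5 rats. The FACS epithelial cells were sorted from collagenase-digested choroid plexus of 10 male rats with an antibody to NKCC1, the cotransporter encoded by SLC12A2, and the proximal tubule library came from the kidneys of 5 male rats, digested with collagenase and pronase, from which tubules were picked by hand. No group had a replicate library, so no difference below was tested, and the intervals given are 95% intervals that cover counting error only and leave out the variation between rats, pools and preparations.

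Protein kinases transfer phosphate from ATP to serine, threonine or tyrosine residues of other proteins, and protein phosphatases remove it, so that the pair sets how strongly a transporter, channel or transcription factor is phosphorylated. In the choroid plexus epithelium, SPAK, encoded by STK39, is known for phosphorylating the cation-chloride cotransporters, among them NKCC1 of the luminal membrane. Protein kinase A carries the cAMP signal of many hormone receptors, and protein phosphatases 1 and 2A, whose catalytic subunits act with many regulatory partners, account for much of the serine and threonine phosphatase activity of most cells.

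The libraries held 23873318 to 28324976 expected counts, the read numbers that RSEM estimates per gene. In the proximal tubule library, 70.7% of the counts fell on the 13 mitochondrially encoded protein genes against 4.3% to 5.3% in the other 3 libraries, which left 7352952 counts for all other genes. TPM, a level corrected for transcript length and library size, is used throughout. It includes the mitochondrially encoded genes except where stated. These took 72.1% of the TPM in the proximal tubule, 8.4% in the male, 6.3% in the female and 6.2% in the FACS library. Proximal tubule levels of other genes are therefore not on a like scale with the other libraries unless these genes are removed. Of the 13598 genes that reached 0.5 TPM in the male choroid plexus, 58.3% were listed at 0 in the proximal tubule. Of 10 markers of choroid plexus epithelium, none was at 0 in the 3 choroid plexus libraries, and 6 were at 0 in the proximal tubule. Of 8 proximal tubule markers, none was at 0 in the proximal tubule library. Their summed level there was 952.5 TPM, of which SLC3A1 alone gave 871 TPM. The other markers had 1.04 TPM (SLC9A3) to 41.3 TPM (SLC5A12) in that library. In the other libraries the sum was 116.8 to 141.1 TPM, of which SLC22A8, which the choroid plexus also expresses, gave 100.4 to 121 TPM.

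The promoter sequences are shown here because they are a property of the members that the selection by level did not use. In RefSeq's rat assembly GRCr8, windows from 250 bases before to 50 bases after the start were available for 26 of the 30 genes, 28 windows in all because SGK1 had 3. A ratio of observed to expected CG dinucleotides above 0.6 was found in 23 of the 28 windows, or 82.1%, against 34.3% of all 33469 windows. The median GC content was 66.0% against 51.7%. The background here and for the motifs below is all windows, whatever the level of their gene. Windows of other genes as highly expressed as the members were not compared, so whether these differences are particular to the members was not tested. STK39, a leading kinase with a ratio of 0.86, and DMPK, which had the lowest ratio of the member windows, 0.04, are given below 5' to 3' for the 250 bases before the start, with each CG in capitals. The STK39 stretch, chr3:73586980-73587229 on the minus strand, held 15 CG dinucleotides, and the DMPK stretch, chr1:87858073-87858322 on the plus strand, held 1.
STK39: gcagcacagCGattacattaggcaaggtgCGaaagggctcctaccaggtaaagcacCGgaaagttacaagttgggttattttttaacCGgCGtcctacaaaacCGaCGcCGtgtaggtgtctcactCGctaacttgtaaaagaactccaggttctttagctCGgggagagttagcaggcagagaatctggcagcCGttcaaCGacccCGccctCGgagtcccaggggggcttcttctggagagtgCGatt
DMPK: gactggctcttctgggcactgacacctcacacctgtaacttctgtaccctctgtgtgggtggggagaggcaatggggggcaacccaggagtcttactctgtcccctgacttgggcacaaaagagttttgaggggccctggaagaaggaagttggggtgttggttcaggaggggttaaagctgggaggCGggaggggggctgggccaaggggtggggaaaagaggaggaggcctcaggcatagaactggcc
Of 4 motifs searched on both strands of the whole windows, GGGCGG was present in 67.9% of the member windows and 33.1% of all windows, CCAAT in 28.6% and 37.5%, TATAAA in 7.14% and 14.2%, and TGACGTCA, the palindromic cAMP response element, in 3.57% and 1.83%. The single member window with TGACGTCA was that of PPP2CA, where it began 53 bases before the start.
PPP2CA: tgacgccggcgTGACGTCAccacgccgggc
The capitals mark the motif, and its presence is a description of the sequence only.

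Each of the 30 genes was expressed in the 3 choroid plexus libraries, and together they held 0.366% of the male TPM, 0.324% of the female TPM and 0.182% of the TPM of the FACS epithelial cells. In the male choroid plexus, the 20 kinases spanned 60.8 to 324 TPM, and the 10 phosphatases spanned 62.5 to 268 TPM. By TPM, the members took places 335 to 1901 among all genes of the male library. In the proximal tubule, 15 of the 30 were listed at 0. The proximal tubule levels in the next paragraphs keep mitochondrially encoded genes in the total. Without them, PTP4A2, for example, goes from 9.21 to 33.0 TPM in that library.

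MAPK4 and STK39 led the kinases. MAPK4, which encodes the atypical MAP kinase ERK4, stood at 324 TPM in the male choroid plexus (34286 counts), 256 TPM in the female choroid plexus, 105 TPM in the FACS epithelial cells and 0 TPM in the proximal tubule. STK39 stood at 320 TPM (25462 counts), 282 TPM and 122 TPM in the same order and was likewise listed at 0 in the proximal tubule. MAPK4 was the higher of the pair in the male library and STK39 in the other choroid plexus libraries.

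Among the AGC kinases, SGK1, the serum and glucocorticoid regulated kinase that acts on epithelial ion transport, had 134 TPM in the male choroid plexus, 103.1 TPM in the female choroid plexus, 66.8 TPM in the FACS epithelial cells and 1.5 TPM in the proximal tubule. AKT1, the kinase downstream of insulin and growth factor receptors, had 121, 113, 72.6 and 0 TPM. PRKACA had 60.8, 56.2, 30.1 and 0 TPM, the lowest male level of the 30 genes. These 3 kinases were each highest in the male and lowest in the proximal tubule library. SGK3 (65.5 TPM in the male library) and DMPK, the kinase of the myotonic dystrophy locus (89.6 TPM), completed this family.

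PINK1, which marks damaged mitochondria for removal, had 196 TPM in the male choroid plexus, 205 TPM in the female choroid plexus, 88.7 TPM in the FACS epithelial cells and 2.16 TPM in the proximal tubule. It was the only member with a higher level in the female than in the male library. The other kinases of mitochondrial proteins were BCKDK, which restrains the breakdown of branched-chain amino acids, at 86.9 TPM in the male library, and PDK3, which inhibits pyruvate dehydrogenase, at 74.4 TPM. The casein kinases were CSNK1A1 (131 TPM), CSNK1G2 (109 TPM) and CSNK2A1 (121 TPM). TGFBR2, the ligand-binding receptor kinase for TGF-beta, was the only receptor kinase, at 102 TPM.

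PPP2CB, the beta isoform of the catalytic subunit of protein phosphatase 2A, was the most abundant phosphatase, with 268 TPM in the male choroid plexus (8626 counts), 250 TPM in the female choroid plexus, 120 TPM in the FACS epithelial cells and 1.11 TPM in the proximal tubule. PTP4A2, a prenylated phosphatase that binds the CNNM magnesium transport proteins, followed with 179, 159, 73.7 and 9.21 TPM. PTPRA, a receptor-type tyrosine phosphatase that activates Src family kinases, had 97.8, 86.0, 84.6 and 0.17 TPM. Of these 3 genes, PTPRA kept the most similar level in the sorted cells and had the lowest level in the proximal tubule.

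**Figure D1:**
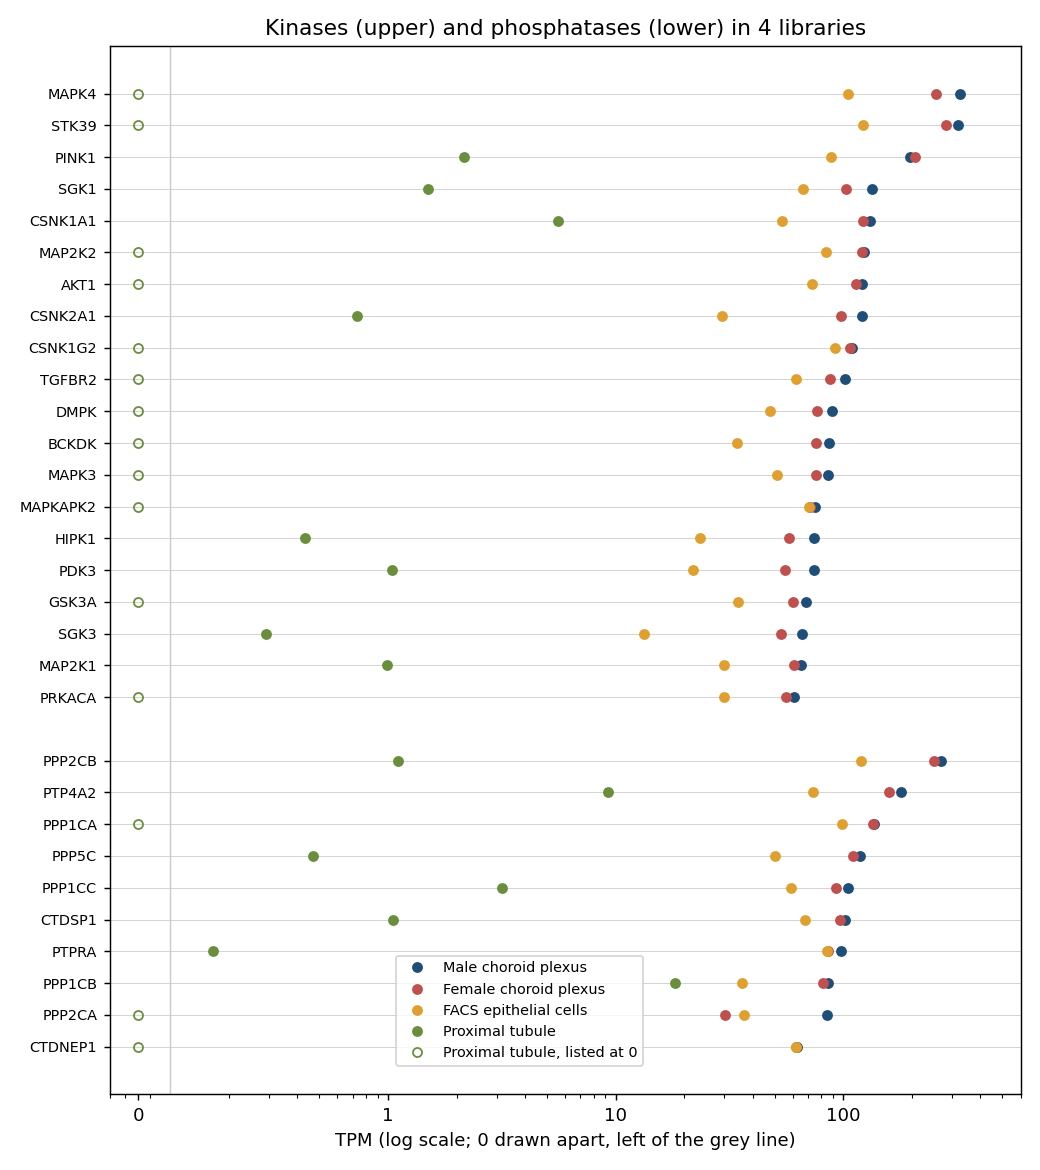
Level of each of the 20 kinases (upper block) and 10 phosphatases (lower block) in the 4 libraries, as TPM on a log axis, with values of 0 drawn as open circles left of the grey line. Each point is 1 library, and the 15 open circles are the members listed at 0 in the proximal tubule. TPM here includes mitochondrially encoded genes, which took 72.1% of the proximal tubule TPM against 8.4% of the male TPM.

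Sorted epithelial cells were compared with whole male tissue to ask how far the tissue profile is that of the epithelium. All 30 genes had a lower TPM in the FACS epithelial cells than in the male choroid plexus, as did 78.0% of all genes, and 15 of them, 10 kinases and 5 phosphatases, were lower by more than 2-fold on the scale log2(TPM + 1). None was higher by 2-fold, as 4.61% of all genes were and 1.42% of genes of like male level. The background for lower levels was 25.5% of all 14024 genes lower by 2-fold and 28.6% of the 1901 genes with a male level at least that of the lowest member, against 50% of the members. These 1901 genes are called genes of like male level throughout, although the set has no upper limit and includes genes above every member. They share the selection by a high male level with the members, while the set of all genes does not. How far that selection lowered the ratios of the members, here and in the other comparisons, was not tested. The median log2 difference of the members was -1.04, against -0.58 over all genes and -0.65 over the 1901 genes of like level. In bulk RNA, fewer cells of a type and less RNA per cell cannot be told apart.

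The strongest differences were among the kinases. SGK3 went from 65.5 TPM in the male tissue to 13.3 TPM in the FACS epithelial cells, a log2 difference of -2.22 (interval -2.37 to -2.06). CSNK2A1, the catalytic subunit of casein kinase 2, went from 121 to 29.3 TPM (-2.0, interval -2.10 to -1.91). PDK3 went from 74.4 to 21.9 TPM (-1.72, interval -1.82 to -1.62). The nuclear kinase HIPK1 and MAPK4 followed at -1.63 and -1.62. These 5 kinases were also the members that were lower by over 2-fold once the median of all genes had been subtracted, where the background was 6.03%.

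A second set of kinases lay between -1.10 and -1.38, with STK39 at -1.38 (interval -1.42 to -1.35), BCKDK at -1.32 (86.9 to 34.1 TPM), CSNK1A1, a kinase of the beta-catenin destruction complex, at -1.26 (131 to 54.0 TPM), PINK1 at -1.14 and MAP2K1 at -1.10 (65.34 to 29.99 TPM). The 5 phosphatases past the 2-fold limit lay close together, with PTP4A2 at -1.27, PPP1CB at -1.24 (86.0 to 35.9 TPM), the Hsp90-binding phosphatase PPP5C at -1.22 (118 to 50.2 TPM), PPP2CA at -1.19 and PPP2CB at -1.16. PRKACA and SGK1, both at -0.99, and GSK3A, a kinase that acts on glycogen synthase and beta-catenin, at -0.97 fell just short of the limit, and the intervals of all 3 included it.

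At the other end, 4 members differed from the male tissue by less than 0.3 on the log2 scale. CTDNEP1, the nuclear envelope phosphatase that acts on lipin, had 62.5 TPM in the male tissue and 62.2 TPM in the FACS epithelial cells, a difference of -0.01 (interval -0.10 to 0.08). MAPKAPK2, a kinase of the p38 stress pathway, had 75.2 and 70.9 TPM (-0.08, interval -0.15 to -0.02). PTPRA differed by -0.21 (interval -0.26 to -0.15) and CSNK1G2 by -0.25 (interval -0.30 to -0.19). Relative to the median of all genes, 7 members were above and 23 below, and the 7 were CTDNEP1, MAPKAPK2, PTPRA, CSNK1G2, PPP1CA (-0.46), MAP2K2 (-0.54) and CTDSP1, a phosphatase of the RNA polymerase II tail (-0.58), the last of them at the median to 2 decimals.

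**Figure D2:**
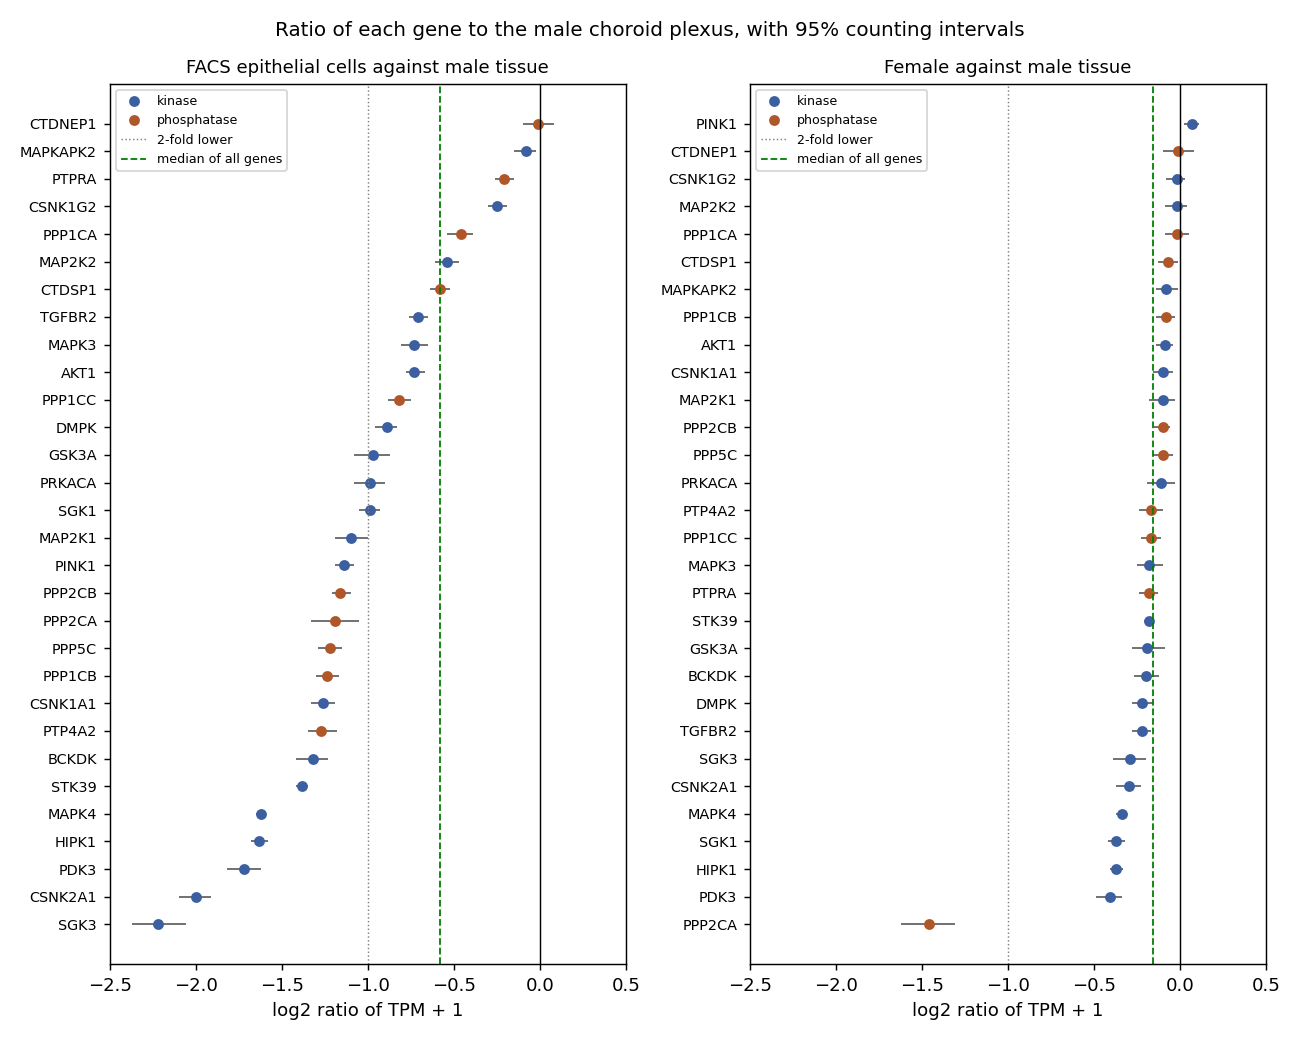
Log2 ratio of TPM + 1 of each member to the male choroid plexus (x axis) for the FACS epithelial cells (left) and the female choroid plexus (right), with genes ordered by ratio and horizontal bars giving 95% counting intervals. In the sorted cells 15 of the 30 points lie left of the dotted 2-fold line, and in the female tissue only PPP2CA does.

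The extent of these differences moved with the scaling of the libraries. TTR, the transthyretin gene and the largest single transcript of the tissue, took 238565 TPM in the male tissue and 389655 TPM in the FACS epithelial cells. With the 10 highest genes of each library removed before scaling, 5 members rather than 15 were lower by 2-fold, against 13.7% of all genes. With expected counts scaled to the library total (CPM), 6 were lower, against 15.1%, and relative to the median of all genes 5, against 6.03%. A common scaling factor moves all members of a library alike and leaves their order as it was. CPM is not such a factor, because it leaves out the correction for transcript length, and it can change the order of members that lie close together.

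**Figure D3:**
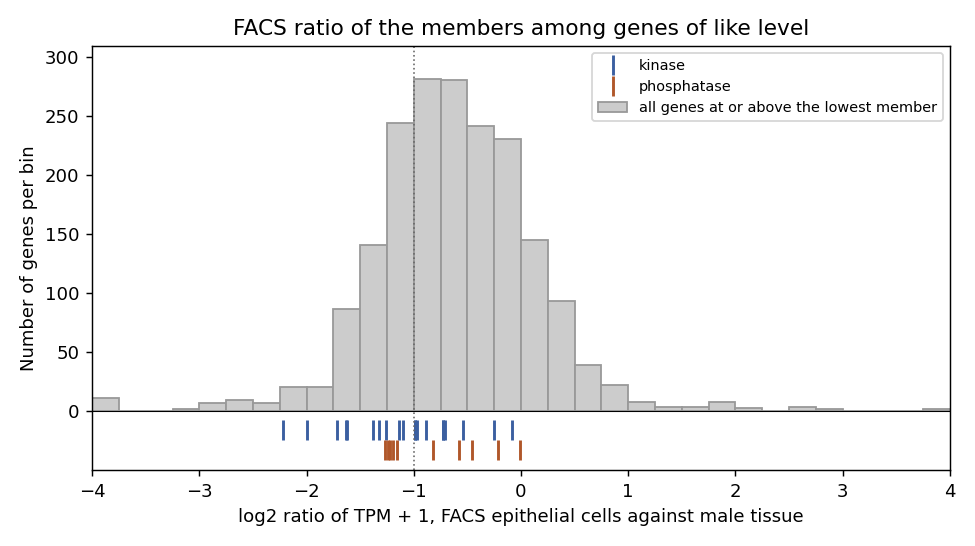
Number of genes (y axis) by log2 ratio of TPM + 1 between the FACS epithelial cells and the male tissue (x axis, bins of 0.25) for the 1901 genes with a male level at or above the lowest member, the outermost bins holding all values beyond them. The ticks below mark the kinases and phosphatases, 15 of which lie left of the dotted 2-fold line, as do 28.6% of the 1901 genes.

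Markers of other cells also differed between these libraries. The 5 immune cell markers, CD74, CSF1R, CX3CR1, LYZ2 and RT1-DA, all had a higher level in the FACS epithelial cells, 4 of them by over 2-fold, and summed to 5234.9 TPM against 940.9 TPM in the male tissue. The 7 endothelial markers summed to 264.1 against 180.2 TPM, of which PLVAP gave 177.9 and 104.9 TPM. Of these 7, 5 were higher and 2 lower in the sorted cells, none by 2-fold, with a median log2 difference of 0.19. The 5 stromal and mural markers summed to 1443.4 against 890.1 TPM, of which MGP, DCN and PDGFRB were higher and PDGFRA and RGS5 lower in the sorted cells. The 3 haemoglobin genes summed to 1568.2 against 8109.3 TPM. None of these markers was at 0 in either library. Of the 10 epithelial markers, 3 were lower in the sorted cells by 2-fold and 2 were above 0 on the log2 scale, with a median of -0.53. Without OTX2, which shared its counts with another ID, 2 of the 9 left were lower by 2-fold, with a median of -0.45. The part of these markers in the differences of the kinases and phosphatases was not tested.

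Male and female choroid plexus were compared to ask whether the sexes differ. Of the 30 members, 29 had a lower TPM in the female library, as did 76.7% of all genes, but by little, with a median log2 difference of -0.17 against -0.16 over all 13869 genes and -0.10 over the 1901 genes of like male level. Relative to the median of all genes, 16 members were below and 14 above. PPP2CA alone was lower by over 2-fold and none was higher, where the background was 0.959% of all genes lower and 0.44% higher, and 0.368% lower and 0.158% higher among the genes of like male level. It was lower by 2-fold relative to the median of all genes too, as 0.757% of genes were. Without PPP2CA, the members ranged from -0.41 for PDK3 to 0.07 for PINK1.

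PDK3 went from 74.4 TPM in the male library to 55.7 TPM in the female library (-0.41, interval -0.49 to -0.34) and SGK1 from 134 to 103.1 TPM (-0.37, interval -0.42 to -0.32). HIPK1, at 74.5 and 57.5 TPM (-0.37), and MAPK4 (-0.34) were next. PINK1 at 0.07 (interval 0.02 to 0.11), CTDNEP1 at -0.01 and PPP1CA at -0.02 had the highest ratios, and the intervals of the latter pair included 0. This comparison and that of the FACS epithelial cells share the male library.

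PPP2CA, the alpha isoform of the catalytic subunit of protein phosphatase 2A, had 84.7 TPM in the male choroid plexus, 30.1 TPM in the female choroid plexus, 36.5 TPM in the FACS epithelial cells and 0 TPM in the proximal tubule. Its log2 difference between the female and the male library was -1.46 (interval -1.62 to -1.31), place 1 from the lowest among the 1901 genes of like male level. It was also the only member whose expected counts were not whole numbers, as happens where reads fit more than 1 gene. A second ID, named LOC103694903, held exactly the same count as PPP2CA in the male library, 1366.13 each, and in the FACS epithelial cells, 609.48 each, with an equal effective length in every library. In the female library alone the counts were unequal, with 474.97 on PPP2CA and 2010.96 on LOC103694903, so that PPP2CA held 19.1% (Wilson interval 17.6% to 20.7%) of the pair.

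With both IDs summed, PPP2CA stood at 169.46 TPM in the male, 157.65 TPM in the female and 73.0 TPM in the FACS library, a log2 difference of -0.10 (interval -0.18 to -0.02) between the sexes and of -1.20 for the sorted cells. The low female value of PPP2CA was thus not present in the sum, and no member was then lower by 2-fold in the female library. Which of the IDs these reads came from cannot be told apart in these tables. OTX2, an epithelial transcription factor, showed the same pattern, with 2038.5 counts on each of its IDs in the male library and 887.11 and 2620.89 in the female library. Among genes reaching 0.5 TPM in male tissue, 43 groups of IDs had equal counts in the male and FACS libraries, and 3 pairs were apart by over 1.5 times in the female library.

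**Figure D4:**
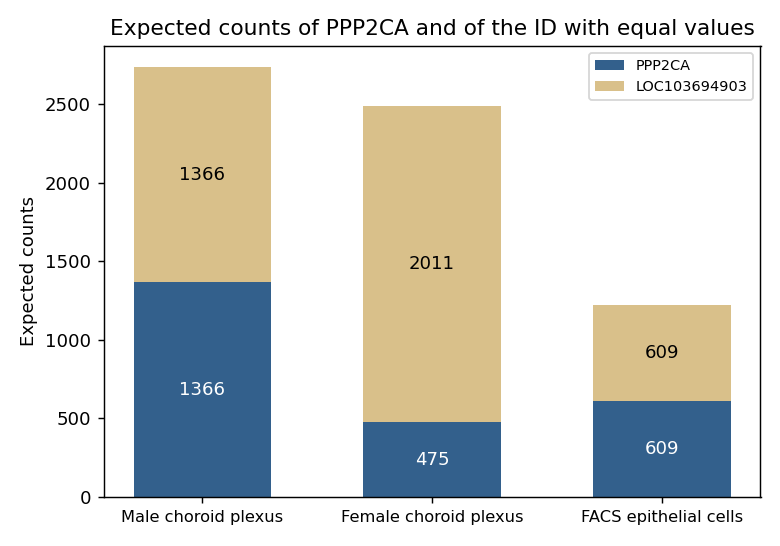
Expected counts (y axis) of PPP2CA and of LOC103694903, stacked, in the 3 choroid plexus libraries. Both IDs hold equal counts in the male and FACS libraries, while in the female library PPP2CA holds 19.1% of the pair.

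The proximal tubule, another epithelium that moves large volumes of fluid, was compared with the male choroid plexus after the 13 mitochondrially encoded genes had been removed from both. Of the 30 members, 15 were listed at 0 there, 12 kinases and 3 phosphatases, or 50%. The background was 33.0% of the 1901 genes of like male level and 58.3% of all genes reaching 0.5 TPM in male tissue. With 3 counts as the floor, a count of 0 allows a share of up to 4.08e-05% of the counts outside mitochondrially encoded genes, and no fold is given for these genes. They included STK39, MAPK4, AKT1, PRKACA and MAPK3. The floor covers counting error only, and 5192 genes reached 0.5 TPM in this library against 13598 in the male choroid plexus. A listed 0, here or in the balances below, therefore does not show that a gene is absent from the tubule.

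Of the 15 members with counts, 8 kinases and 7 phosphatases, 14 were lower by over 2-fold, where the background was 46.2% of the 6216 genes with counts and 62.6% of those of like male level. None was higher by 2-fold, as 27.6% of the genes with counts and 19.4% of those of like level were. Relative to the median of all genes, 14 members were again lower by 2-fold, against 35.7% of genes. Their median log2 difference was -4.56, against -0.72 over all genes with counts and -2.24 over the 1260 of like male level. PPP1CB, the beta isoform of the catalytic subunit of protein phosphatase 1, was the exception, with 65.1 TPM in the proximal tubule against 93.9 TPM in the male choroid plexus (log2 difference -0.52), on the scale without mitochondrially encoded genes. PTP4A2 had 33.0 against 195 TPM (-2.53), CSNK1A1 358 counts (-2.77) and PPP1CC 11.3 against 114 TPM (-3.22). At the low end PTPRA had 17 counts in the proximal tubule (0.61 against 107 TPM, -6.06). PPP2CB with 54 counts (3.98 against 293 TPM, -5.88) and PPP5C with 31 counts (1.69 against 129 TPM, -5.6) were next. At such low levels the 1 TPM added before taking logs shrinks the difference and can change the order. Without it, the male level was higher 175-fold for PTPRA, 76.5-fold for PPP5C and 73.5-fold for PPP2CB. SGK3 had the fewest counts of the 15, 13, and a difference of -5.15.

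A ratio within a library does not depend on how the library was scaled, and the balance within groups of related genes therefore gives a further view. MAPK3, which encodes ERK1, a last kinase of the growth factor cascade, went from 85.7 TPM in the male to 75.8 TPM in the female and 51.3 TPM in the FACS library and was listed at 0 in the proximal tubule. The kinases directly upstream of ERK were MAP2K1 and MAP2K2. MAP2K2 was the more abundant, at 123 TPM in the male, 121 TPM in the female and 84.3 TPM in the FACS library, against 65.34, 60.69 and 29.99 TPM for MAP2K1. The share of MAP2K1 in their TPM was 34.7% in the male, 33.5% in the female and 26.2% in the FACS library. In the proximal tubule the order was turned, with 64 counts on MAP2K1 and 0 on MAP2K2.

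AKT1 exceeded AKT2, which is not in the study's list, in each choroid plexus library, with 67.2% of their TPM in the male, 67.3% in the female and 73.4% in the FACS library. AKT2 had 58.9, 55.0 and 26.3 TPM in these libraries. SGK1 made up 67.1% of the TPM of SGK1 and SGK3 in the male, 66.0% in the female, 83.4% in the FACS and 83.8% in the proximal tubule library, the last from 134 counts in all. By counts, its share was 78.8% (interval 77.9% to 79.6%) in the male and 90.1% (89.2% to 91.0%) in the FACS library.

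Among the phosphatases, the balance of PPP2CB and PPP2CA, with both PPP2CA IDs summed, was nearly the same in the choroid plexus libraries, where PPP2CB held 61.3% of the TPM in the male, 61.3% in the female and 62.1% in the FACS library. From the PPP2CA ID alone the female share would have been 89.2%. The catalytic subunits of protein phosphatase 1 were less even. PPP1CA, at 136 TPM in the male, 135 TPM in the female and 98.6 TPM in the FACS library, held 41.7%, 43.6% and 50.9% of the TPM of the 3 genes.

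PPP1CC, at 105, 92.8 and 59.0 TPM, held 32.0%, 30.1% and 30.5%, so that the higher share of PPP1CA in the sorted cells went with a lower share of PPP1CB, 18.6% against 26.3% in the male library. In the proximal tubule PPP1CB held 85.2% of the TPM with 1802 counts, PPP1CC had 248 counts and PPP1CA none.

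**Figure D5:**
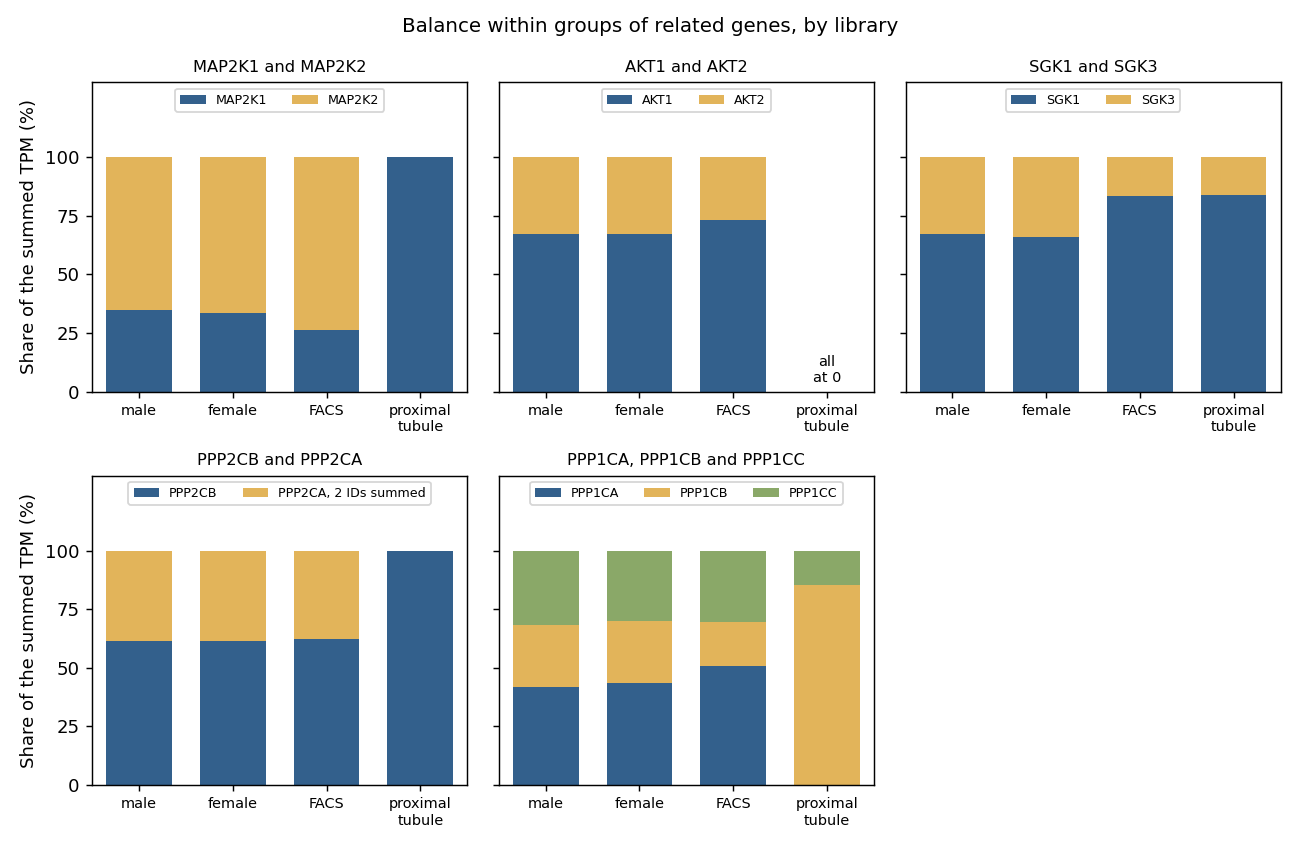
Share of the summed TPM in percent (y axis) within 5 groups of related genes in each library (x axis), with PPP2CA as the sum of 2 IDs. SGK1 holds 67.1% in the male and 83.4% in the FACS library, while PPP2CB stays between 61.3% and 62.1% in the 3 choroid plexus libraries.

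Effective length, the length of a transcript after allowance for the library's fragment lengths, is averaged over a gene's transcripts by their estimated abundance. It was compared between the libraries. Its median difference from the male library was -3.4 bases in the female, -17.0 bases in the FACS and -23.4 bases in the proximal tubule library. The selection was by male TPM, which is computed with the male length, and did not use the lengths in the other libraries. Relative to the median shift of all genes, no member moved by over 5% between female and male, against 4.9% of genes. Between the FACS epithelial cells and the male tissue, CSNK1A1 (6.8%) and GSK3A (8.3%) moved to longer lengths, 2 of 30 against 9.48% of genes. In the proximal tubule, 2 of the 15 members with counts moved, PINK1 by -25.1% on 90 counts and CSNK1A1 by 8.3% on 358 counts, against 15.3% of genes.

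The known partners of these enzymes were followed in a list of 60 genes. In the FACS epithelial cells 23 were lower by 2-fold, as were 25.5% of all genes, and none was higher, as 4.61% were. Their median log2 difference was -0.86, against -0.58 over all genes, and the partners were not recounted under the other scalings. None passed 2-fold between the sexes, where 0.959% of all genes were lower and 0.44% higher. In the proximal tubule 25 were listed at 0, against 58.3% of all genes reaching 0.5 TPM in male tissue. The share was 33.0% of genes with a male level at least that of the lowest member. Of 6 SPAK partners, CAB39L, a scaffold that activates SPAK, was at 483 TPM in the male tissue against 145 TPM in the sorted cells and CAB39 at 82.5 and 35.4 TPM, both lower by over 2-fold, as STK39 was. SLC12A2, the SPAK substrate used for sorting, was at 268 TPM in the male, 237 TPM in the female and 150 TPM in the FACS library (-0.83 on the log2 scale). The KCl cotransporter gene SLC12A4, at 192 and 229 TPM, was the only SPAK partner that was higher in the sorted cells.

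Of 4 protein kinase A partners, 3 were lower by 2-fold in the sorted cells, and PRKAR1A, the regulatory subunit that holds PRKACA inactive, was at 162 TPM in the male tissue against 63.6 TPM in the sorted cells. Of 4 protein phosphatase 2A partners, 2 were lower, among them the scaffold subunit PPP2R1A (166 and 60.9 TPM), whose difference of -1.43 stood beside -1.16 for PPP2CB. Of 5 protein phosphatase 1 partners, 1 was lower, the inhibitor PPP1R2 (110 and 45.9 TPM), while the inhibitor PPP1R1B was at 503 and 355 TPM. Of 11 AKT partners, 7 were lower, and IGF2, the growth factor, was the most abundant, at 2848 and 1919 TPM. Among the other lists, 2 of 9 ERK partners, 4 of 7 mitochondrial partners, 1 of 2 casein kinase partners, 1 of 5 PPP5C partners, and none of 5 TGF-beta and 2 PTP4A2 partners were lower by 2-fold, as were 25.5% of all genes.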

How the data were processed

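Genes were selected with earlier results of these data known, as were the marker and partner lists. Paired-end 150-base reads of 4 libraries were sequenced. The authors aligned them with STAR 2.7.2a to Rnor 6.0 (Ensembl 103) and, with RSEM 1.3.3, deposited for each ID an expected count, which need not be whole, a TPM, an FPKM (not used here) and an effective length; whether counting used strand is not given in the sources used here. Depth was 23873318 to 28324976 expected counts.

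From the deposited TPM, log2 ratios were computed with a pseudocount of 1 for genes at or above 0.5 TPM in either library, and "called" meant past 2-fold. For the proximal tubule, 13 mitochondrially encoded genes were removed and TPM was rescaled. Intervals (95%) were exact Poisson for counts, exact conditional binomial on rounded expected counts for ratios and Wilson for shares. The scripts were tested on simulated data (Python 3.11.15, numpy 2.4.6, pandas 2.3.3, scipy 1.17.1, matplotlib 3.10.9). No model or test was fitted, as each of the 4 groups had 1 library. Because 1 listed gene and 1 partner are not reported here, every count is over the 30 members left. Any member could be named; full values were given for STK39, MAPK4, SGK1, AKT1, PPP2CB, PPP2CA, PTP4A2, PTPRA and PRKACA, for related genes, and for members past 2-fold or the 3 highest and 3 lowest ratios of a comparison. Partners were named only from the list. Alternatives were other pseudocounts, cut-offs, scalings, references and mitochondrial settings, and shares by count.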

Additional observations from a re-analysis of the deposited data

How the results depend on the processing

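Each group was 1 pooled library, so neither the spread between rats nor that between preparations was measured, and the counting intervals leave both out. No paired analysis was possible because each group had a single library and its replicate number only names it. Members with few counts in the proximal tubule, such as SGK3 with 13, are known with low precision.

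The count of members lower by 2-fold in the FACS epithelial cells, 15, was 6 with expected counts scaled to the library total (CPM; 15.1% of all genes), 5 after removal of the 10 highest genes per library (13.7%) and 5 relative to the median of all genes. With limits of 1.5-fold and 3-fold, chosen after seeing the data, it was 23 and 5, against 49.8% and 6.0% of all genes. It lay between 13 and 18 under the other alternatives with a 2-fold limit, and their cause was not tested. With PPP2CA summed with its second ID, also chosen after seeing the data, 0 members rather than 1 were lower by 2-fold in the female library. The difference in SGK1's share among SGK1 and SGK3 from the male to the FACS library was 16.3 points by TPM and 11.4 points by counts. The proximal tubule count, 14 of 15, was 14 or 15 under every alternative run. The median log2 ratio of the members ranged from -1.08 to -0.46 for the FACS cells, from -0.20 to -0.01 for the female library and from -5.69 to -3.83 for the proximal tubule.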

Other observations

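Some kinase and phosphatase genes outside the selection, chosen after their values were seen, reached levels close to those of the lowest members. MAPK6, which encodes the atypical MAP kinase ERK3 and is the nearest relative of MAPK4, had 65.1 TPM in the male choroid plexus, 53.2 TPM in the female choroid plexus, 31.6 TPM in the FACS epithelial cells and 1.99 TPM in the proximal tubule, next to 65.3 TPM in the male library for MAP2K1, the last of the listed kinases. Unlike MAPK4 it was thus not listed at 0 in the proximal tubule, where it had 252 counts. STK24, a STE20-like kinase, had 61.6 TPM in the male tissue against 19.3 TPM in the sorted cells, a log2 difference of -1.62, the same as that of MAPK4.

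SSU72, a phosphatase of the RNA polymerase II tail, had 78.7 TPM in the male choroid plexus, 68.8 TPM in the female choroid plexus, 49.2 TPM in the FACS epithelial cells and 42.3 TPM in the proximal tubule, where it had 1185 counts. These levels keep mitochondrially encoded genes, which took 72.1% of the proximal tubule TPM against 8.4% of the male TPM. They therefore do not show that SSU72 was lower in the proximal tubule. The male level of SSU72 lay above that of CTDNEP1, the lowest of the 10 phosphatases at 62.5 TPM. Of the phosphatase subunits, PPP3R1, the regulatory subunit of calcineurin, had 72.9, 63.2, 35.0 and 2.49 TPM, and PPP6R1, a regulatory subunit of protein phosphatase 6, had 91.8, 78.0, 46.9 and 0 TPM.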
